A study of Mus musculus with 7 samples.

Results

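Expression of 34 genes of antioxidant defense and of the Nrf2 pathway was compared between a ketogenic diet (KD) and a control diet (CD, called SD in the sample labels) in APP/PS1 mouse cortex. The genes were picked by symbol, out of 23413 gene symbols counted in each library. All 34 passed the filter on low counts and were among the 15881 genes tested, and the lowest count of any of them in any library was 21. RNA-seq counts came from 7 mice, 4 on CD and 3 on KD, with 1 library from the cortex of each mouse. Every mouse carried the APP/PS1 transgenes, which overexpress mutant human amyloid precursor protein and presenilin, and libraries of wild-type cortex were not analysed here. The diets began at 6 months of age and lasted 7 months, so the mice were 13 months old. CD supplied 74% of its energy as carbohydrate, 10% as protein and 16% as fat, whereas KD supplied under 0.5%, 10% and 90%. The sex of each mouse is not in the labels.

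Nrf2, the product of Nfe2l2, is a transcription factor that Keap1 holds in the cytoplasm and hands over for degradation. When electrophiles or peroxides modify Keap1, Nrf2 escapes, enters the nucleus with a small Maf partner and switches on genes that carry antioxidant response elements. Its targets make and recycle glutathione and thioredoxin, conjugate electrophiles and break down heme, and in brain the pathway is known to be stronger in astrocytes than in neurons. Metallothioneins are small cysteine-rich proteins that bind zinc and copper and scavenge radicals, and metal, glucocorticoids and oxidants are known to induce Mt1 and Mt2.

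Libraries held 22272883 to 36614954 counts, and levels are given as CPM, the counts scaled by library size, after TMM scaling, with factors from 0.978 to 1.04. The labelled cortex was checked against 10 cortical neuron markers, whose summed level was 4320 to 6133 CPM in the CD libraries and 4103 to 5976 CPM in the KD libraries. Along the first principal component of log2 CPM, which held 35% of the variance, CD replicate 4 (39.5) and KD replicate 3 (46.7) stood apart from the other 5 libraries (-25.2 to 2.39). The same 2 libraries had the highest summed levels of 10 olfactory bulb markers (124.5 and 120.6 CPM, against 22.2 to 29.7 CPM) and of 10 meningeal fibroblast markers (422.4 and 192.5 CPM, against 62.7 to 126.9 CPM). Xist was above 200 CPM in CD replicates 1 and 2 and in KD replicates 1 and 2. It was at most 3.09 CPM in CD replicates 3 and 4 and in KD replicate 3, so each diet held libraries of both kinds. In bulk tissue, fewer cells of a type and less RNA per cell cannot be told apart.

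Of the 34 genes, 27 had a lower and 7 a higher fitted level in KD than in CD, where 51.0% of all tested genes were lower and 49.0% higher. The median log2 fold change was -0.10, against -0.0033 over all tested genes. In edgeR's quasi-likelihood test, 0 of the 34 had a Benjamini-Hochberg adjusted p under 0.05, as did 0.0% of all tested genes, and the smallest adjusted p was 0.979. DESeq2, limma-voom and edgeR's likelihood-ratio test also called 0 of them. At the raw threshold of 0.01 the count was again 0, against 0.321% of all tested genes. At a raw p under 0.05 it was 2, the metallothioneins Mt1 and Mt2, both lower in KD, which is 5.88% of the genes against 3.19% of all tested genes (1.52% lower and 1.66% higher in KD). The KD and CD ranges did not overlap for 2 genes, Gclc and Gclm, with every KD library below every CD library, as held for 2.07% of all tested genes. Ranges lay apart in either direction for 4.11% of all tested genes, and with every KD library above for 2.05%. The 95% interval of the fold change lay inside 1.5-fold in both directions for 25 of the 34 (73.5%), compared with 56.8% of all tested genes, and the fitted log2 fold changes of those 25 ran from -0.21 to 0.06. The 9 genes with wider intervals were Hmox1, Nqo1, Slc7a11, Gpx3, Sod3, Prdx5, Gsta4, Mt1 and Mt2.

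**Figure D1:**
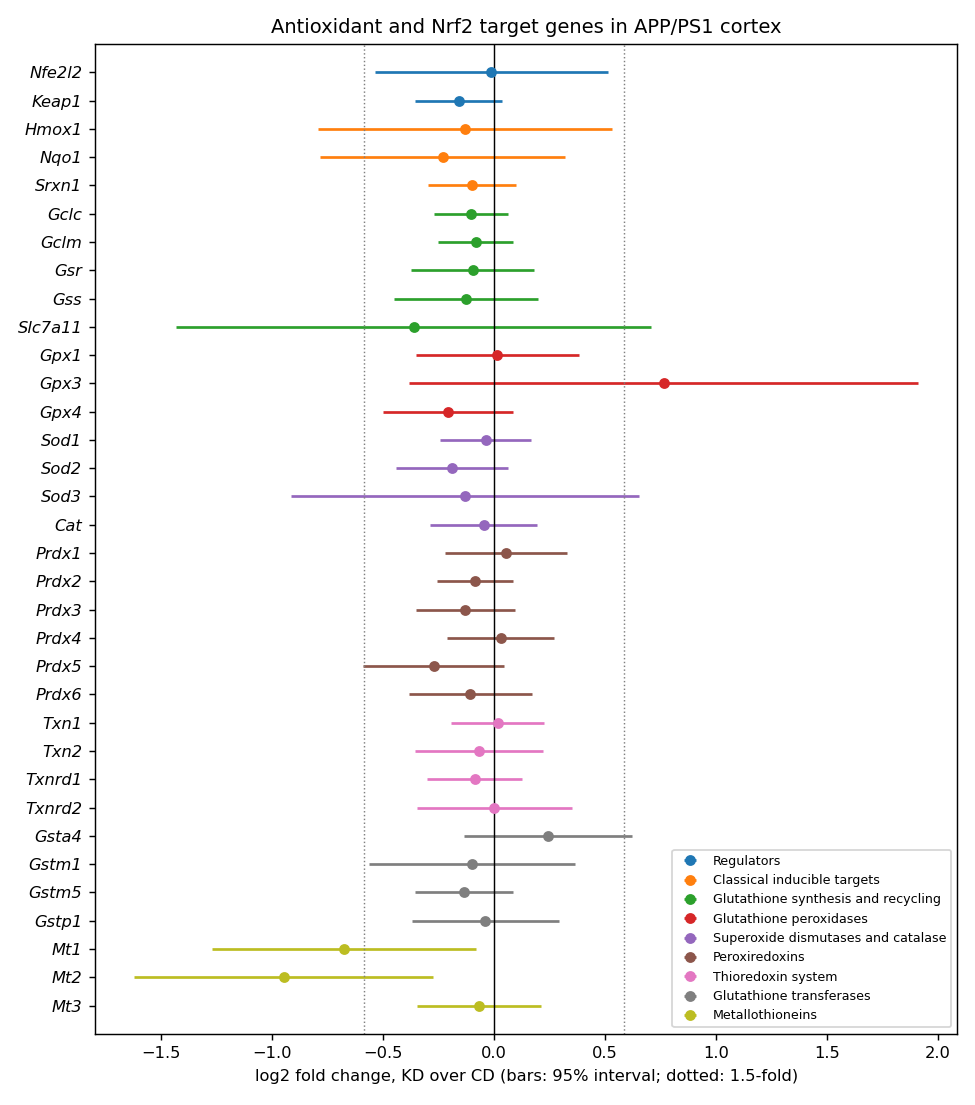
Log2 fold change of each of the 34 genes, KD over CD (x axis), with the 95% interval of edgeR's fit as a bar, ordered and colored by role (y axis). Dotted lines mark 1.5-fold. The intervals of Mt1 and Mt2 lie wholly below 0, those of Gpx3 and Slc7a11 are the widest, and 25 of 34 lie between the dotted lines.

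The direction of the list rested in part on single libraries. Without CD replicate 1, 21 of the 34 genes were lower in KD, and without KD replicate 1, 30 were. CD replicate 1 had the highest CD level for 18 genes and CD replicate 3 the lowest for 25. CD replicate 1 also had the highest summed level of 10 choroid plexus markers, 473.5 CPM against 13.7 to 84.1 CPM in the other 6 libraries, with Ttr (transthyretin) at 426.8 CPM. All 9 choroid plexus markers tested had a lower fitted level in KD, 1 of them at a raw p of at most 0.01 in edgeR's quasi-likelihood test, and their part in the levels of the 34 genes was not tested. The summed level of the 34 genes was 2622, 2476, 2204 and 2668 CPM in CD replicates 1 to 4, and 2338, 2282 and 2222 CPM in KD replicates 1 to 3. The KD sums thus lay inside the CD range, with only CD replicate 3 below them. CD replicate 3 also had the lowest summed level of 10 oligodendrocyte markers, 1154 CPM against 3708 to 4422 CPM in the other CD libraries, and KD replicate 3 was nearly as low, with 1182 CPM against 2260 and 4376 CPM. All 10 oligodendrocyte markers had a lower fitted level in KD, with 0 at a raw p under 0.05, and their part in the levels of the 34 genes was not tested.

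**Figure D2:**
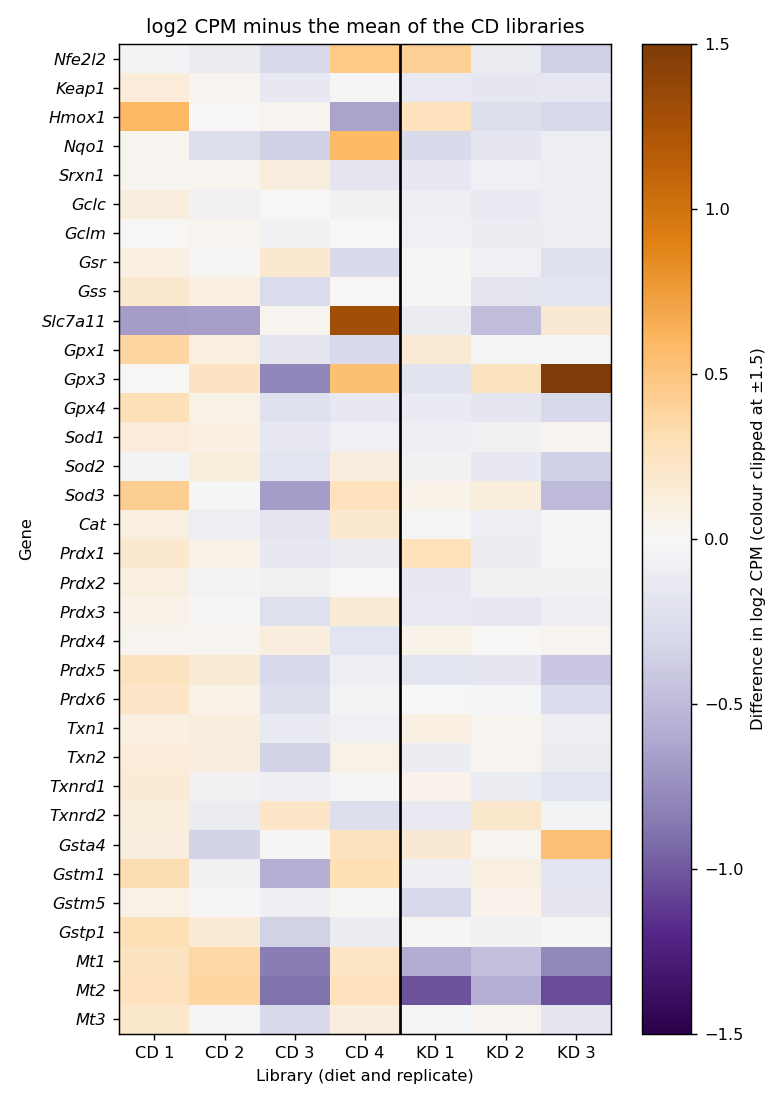
Log2 CPM of each gene (y axis) in each library (x axis), minus the mean of the 4 CD libraries. Purple is lower and orange higher, with colors clipped at 1.5, and the line parts CD from KD. Mt1 and Mt2 are low in CD 3 and in all 3 KD libraries, and Slc7a11 in CD 4 and Gpx3 in KD 3 are the darkest high cells.

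Levels were compared between genes per kilobase of merged exons, in CPM per kb and as CD means. The highest were Gstm5 (79.8), a glutathione transferase, Mt3 (71.0), the brain metallothionein, and the peroxiredoxins Prdx2 (62.4), Prdx3 (58.01) and Prdx5 (56.0). Prdx6 (52.8) and Txn1 (52.3), cytosolic thioredoxin, came next. The lowest were Gss (2.15), Gpx3 (0.926) and Sod3 (0.366). The classical inducible targets Hmox1 (3.46) and Nqo1 (4.53) were also near the bottom, whereas Srxn1 stood ninth with 46.4. Merged exons pool all annotated transcripts of a gene, so the order depends on the annotation too. Sod2, with 10008 merged bases, ranked 17, although its CD mean of 271.9 CPM was the highest of the 34 genes. The CD ranges of 27 of the 33 pairs of neighbors in this order overlapped, and the pairs apart were Gclc and Cat, Keap1 and Txnrd1, Txnrd1 and Prdx4, Txn2 and Gclm, Gss and Gpx3, and Gpx3 and Sod3. The within-diet SD of log2 CPM had a median of 0.18 over the 34 genes. It was largest for Gpx3 (0.76), Slc7a11 (0.75), Mt2 (0.49), Mt1 (0.44) and Hmox1 (0.43), and smallest for Prdx2 (0.06), Gclc (0.06) and Gclm (0.03).

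**Figure D3:**
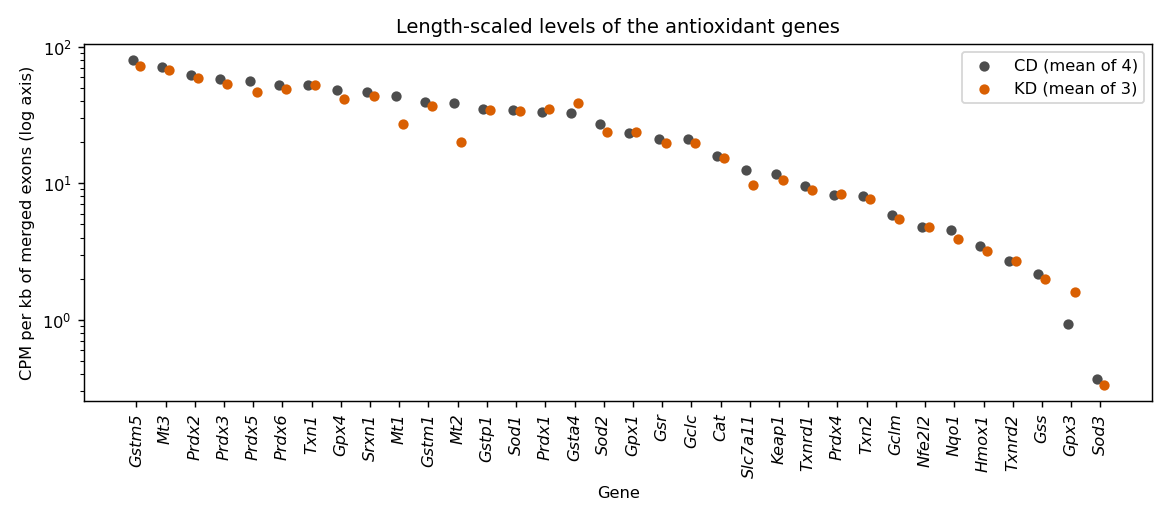
Mean level of each gene (x axis, ordered by level in CD) in CPM per kb of merged exons on a log axis (y axis), with the mean of 4 CD libraries in gray and of 3 KD libraries in orange. The genes span from 79.8 (Gstm5) to 0.366 (Sod3) in CD, and the 2 diets lie close for most, with wider gaps for Mt1, Mt2 and Gpx3.

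The regulators were examined first. Nfe2l2 (chr2:75675513-75704641, minus strand, mm10), which encodes Nrf2 itself, was at 17.2, 16.4, 14.4 and 24.4 CPM in CD replicates 1 to 4 and at 23.7, 16.5 and 13.8 CPM in KD replicates 1 to 3. The highest and lowest libraries of both diets lay side by side, and the log2 fold change was -0.01 (SE 0.23, 95% interval -0.54 to 0.52). Keap1 (chr9:21229730-21239361, minus strand), the adaptor that targets Nrf2 for degradation, was at 60.1, 56.2, 49.6 and 54.2 CPM in CD and at 49.8, 48.8 and 49.3 CPM in KD. The 3 KD libraries agreed closely and lay at or below the CD range except for CD replicate 3, which lay among them. The log2 fold change of Keap1 was -0.16 (SE 0.09, 95% interval -0.35 to 0.04), with a raw p of 0.102 in edgeR's quasi-likelihood test. With single libraries left out, it ran from -0.20 without CD replicate 3 (raw p 0.0368 in the same test) to -0.11 without CD replicate 1 (raw p 0.234). Without CD replicate 3, a raw p under 0.05 was also more frequent over all tested genes, at 1161 of 15729 against 506 of 15881.

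Among the classical inducible targets, Hmox1 (heme oxygenase 1) was at 8.72, 5.85, 5.96 and 3.74 CPM in CD and at 6.99, 4.91 and 4.73 CPM in KD. Nqo1, a quinone reductase often used to read out Nrf2 activity, was at 6.92, 5.71, 5.32 and 10.2 CPM in CD and at 5.57, 6.05 and 6.42 CPM in KD. Both overlapped between diets, with CD replicate 4 the lowest library for Hmox1 and the highest for Nqo1. Log2 fold changes were -0.13 for Hmox1 (95% interval -0.79 to 0.53) and -0.23 for Nqo1 (-0.78 to 0.32), and without CD replicate 4 that of Nqo1 was 0.0057. Srxn1 (sulfiredoxin, which repairs overoxidized peroxiredoxins) was far more abundant, at 134.0, 133.8, 140.3 and 114.9 CPM in CD and 118.2, 125.1 and 122.7 CPM in KD. Its KD libraries lay between CD replicate 4 and the other 3, and the log2 fold change was -0.10 (SE 0.09, 95% interval -0.30 to 0.10).

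Gclc and Gclm had the smallest within-diet SD of log2 CPM among the 34 genes. Gclc (chr9:77754535-77794485, plus strand), the catalytic subunit of glutamate-cysteine ligase, which carries out the rate-limiting step, was at 85.2, 76.0, 79.4 and 76.2 CPM in CD and at 74.8, 72.4 and 74.2 CPM in KD. Gclm (chr3:122245557-122270732, plus strand), its modifier subunit, was at 36.8, 37.7, 35.4 and 36.7 CPM in CD and at 35.1, 34.3 and 34.5 CPM in KD. For both, all 3 KD libraries lay below all 4 CD libraries, but the gaps were small. Log2 fold changes were -0.10 for Gclc (SE 0.07, raw p 0.204) and -0.08 for Gclm (SE 0.07, raw p 0.305) in edgeR's quasi-likelihood test, with 95% intervals from -0.27 to 0.07 and from -0.25 to 0.09. The ratio of Gclm to Gclc was 0.432 to 0.496 in CD and 0.464 to 0.474 in KD, so the balance of the subunits overlapped between diets. Gss (glutathione synthetase) and Gsr (glutathione reductase) had log2 fold changes of -0.12 and -0.10, with overlapping ranges.

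The region before the Gclm start is shown because this gene had the least variable level of the 34 and is a textbook Nrf2 target. The 250 bases upstream of the RefSeq start (chr3:122245307-122245556, plus strand, GRCm38.p6) held 1 match to the core of the antioxidant response element, TGACNNNGC searched on both strands, which is in capitals and lies on the minus strand 134 bases upstream. It overlaps a match to the metal response element core described further on.
Gclm upstream: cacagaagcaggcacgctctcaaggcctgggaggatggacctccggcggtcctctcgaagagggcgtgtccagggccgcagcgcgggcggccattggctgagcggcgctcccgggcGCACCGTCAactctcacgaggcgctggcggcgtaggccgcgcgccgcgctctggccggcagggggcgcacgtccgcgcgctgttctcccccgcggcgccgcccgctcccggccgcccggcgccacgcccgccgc
The core was found in 7 of the 28 genes of the list that have a promoter in the RefSeq table (Gclm, Gstm5, Mt2, Nfe2l2, Prdx1, Sod1 and Txnrd1) and in 11.5% of all 27025 genes with an entry. Hmox1, Gclc, Gsr, Sod3, Prdx6 and Gsta4 had no entry. A match describes the letters only. Near matches, such as TGAGTCAGC in the windows of Srxn1 and Gstp1, were not counted.

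Slc7a11 (chr3:49892526-50443614, minus strand), the cystine importer that feeds glutathione synthesis, was at 91.7, 92.7, 151.4 and 359.4 CPM in CD and at 135.6, 105.5 and 165.5 CPM in KD. A single library, CD replicate 4, stood far above the other 6, which overlapped between diets. The log2 fold change was -0.36 (SE 0.47, 95% interval -1.43 to 0.71) with all libraries and 0.28 without CD replicate 4. CD replicate 4 also had the highest summed level of 10 meningeal fibroblast markers, 422.4 CPM against 62.7 to 192.5 CPM in the other 6 libraries, with Dcn (decorin) at 121.2 CPM against 10.6 to 72.6 CPM. All 10 of those markers had a lower fitted level in KD, and their part in the Slc7a11 level was not tested.

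Glutathione peroxidases use glutathione to reduce peroxides. Gpx4, which protects membranes from lipid peroxides and ferroptosis, was at 100.1, 86.6, 70.7 and 74.2 CPM in CD and at 75.7, 72.9 and 67.0 CPM in KD. CD replicates 1 and 2 lay above the KD libraries and CD replicates 3 and 4 among them, and the log2 fold change was -0.21 (SE 0.13, 95% interval -0.50 to 0.09, raw p 0.143 in edgeR's quasi-likelihood test). Of the 50-base stretches of its exons, 34.7% also occur in other genes, mainly a pseudogene copy, so its count is less certain. Gpx3, a secreted form, was at 1.601, 1.88, 0.916 and 2.32 CPM in CD and at 1.38, 1.89 and 5.35 CPM in KD. Only KD replicate 3 was high, the log2 fold change was 0.77 (SE 0.50, 95% interval -0.38 to 1.91), and it was -0.04 without that library. The second highest of the meningeal fibroblast sums was in the same library, with 192.5 CPM. CD replicate 4 had the highest sum, 422.4 CPM, with Gpx3 at 2.32 CPM. The part of these markers in the Gpx3 level was not tested. Gpx1, the common cytosolic form, differed by 0.02 (95% interval -0.35 to 0.38).

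**Figure D4:**
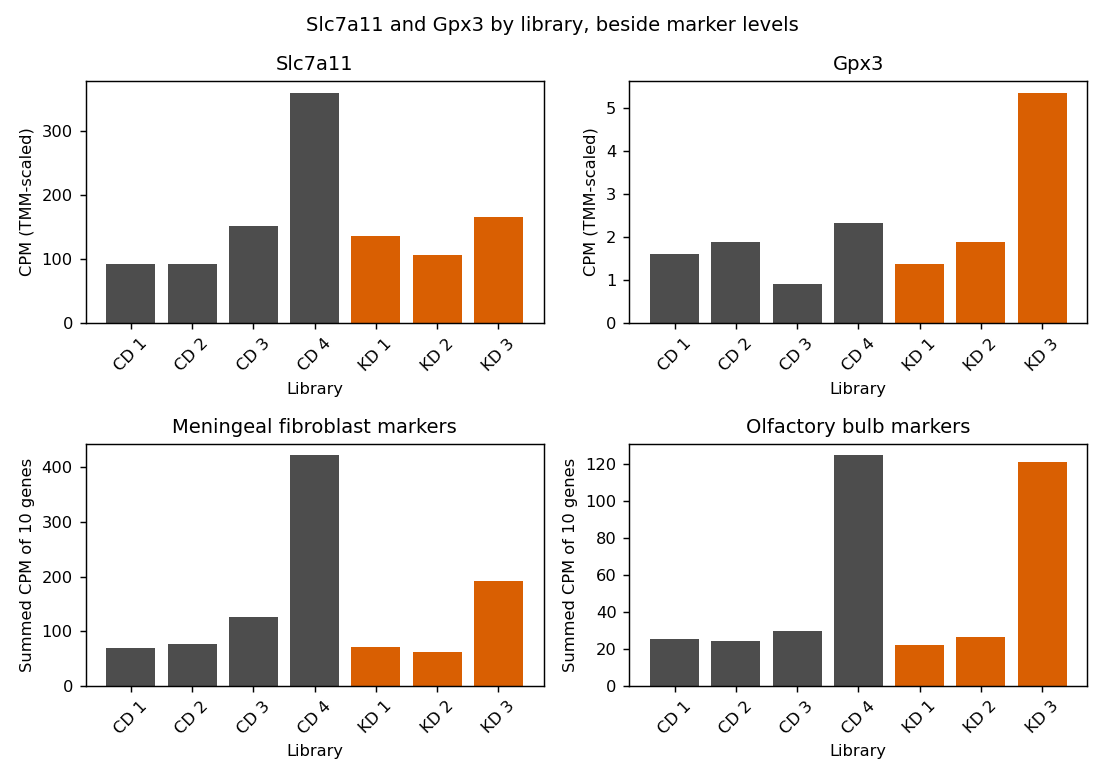
CPM of Slc7a11 and Gpx3 (upper panels) and the summed CPM of 10 meningeal fibroblast and 10 olfactory bulb markers (lower panels) in each library, CD in gray and KD in orange. Slc7a11 peaks in CD 4 (359.4 CPM) and Gpx3 in KD 3 (5.35 CPM), the 2 libraries in which both marker sums are highest.

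Superoxide dismutases turn superoxide into hydrogen peroxide, which catalase (Cat) breaks down. Sod2, the mitochondrial manganese enzyme, was at 263.9, 295.5, 236.7 and 291.4 CPM in CD and at 261.5, 243.7 and 211.2 CPM in KD. The highest KD library lay just under CD replicate 1, and CD replicate 3 lay between the KD libraries. The log2 fold change was -0.19 (SE 0.11, 95% interval -0.44 to 0.07, raw p 0.127 in edgeR's quasi-likelihood test). Of the 50-base stretches of the Sod2 exons, 21.0% also occur in other genes, so its count is less certain. Sod1 (cytosolic), Cat and the extracellular Sod3 differed by -0.04, -0.05 and -0.13. The interval of Sod3, the least abundant of the 34 genes per kilobase, reached from -0.91 to 0.66, so a change of moderate size was not detectable at its 21 to 62 counts per library.

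Of the 6 peroxiredoxins, thiol peroxidases that thioredoxin recycles for the most part, 4 were lower and 2 higher in KD, with 0 at a raw p under 0.05. Prdx5, found in mitochondria and peroxisomes, was at 140.6, 131.3, 96.0 and 111.2 CPM in CD and at 103.7, 105.3 and 88.8 CPM in KD. CD replicates 1, 2 and 4 lay above the KD libraries and CD replicate 3 inside their range. Its log2 fold change of -0.27 (SE 0.14, 95% interval -0.59 to 0.05) had a raw p of 0.0855 in edgeR's quasi-likelihood test. Among fits of this test that dropped 1 library, the raw p was highest at 0.229 (-0.20, KD replicate 3 dropped). It was lowest at 0.0166 (-0.36, CD replicate 3 dropped), a fit in which 1161 of 15729 genes had a raw p under 0.05, against 506 of 15881 with all libraries. Dropping CD replicate 1 gave the smallest fitted change of Prdx5, -0.19 (raw p 0.206). Exons of the antisense neighbor Trmt112 cover 409 bases of its exons, and the strand setting of the counting is not given in the sources used here. Prdx1, Prdx2, Prdx3, Prdx4 and Prdx6 differed by 0.06, -0.08, -0.13, 0.03 and -0.10.

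In the thioredoxin system, Txnrd1, the cytosolic thioredoxin reductase and an Nrf2 target, was at 74.4, 64.5, 63.5 and 66.6 CPM in CD and at 69.4, 62.2 and 58.5 CPM in KD. The ranges overlapped, with replicate 1 the highest library of both diets, and the log2 fold change was -0.09 (SE 0.09, 95% interval -0.30 to 0.13). Txn1 (0.02), the mitochondrial thioredoxin Txn2 (-0.07) and the mitochondrial reductase Txnrd2 (0.0031) differed by no more. Txn2 in CD replicate 3, at 26.7 CPM, was well below the 35.5 to 36.8 CPM of the other CD libraries.

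Glutathione transferases attach glutathione to electrophiles. Gsta4, which clears the lipid peroxidation product 4-hydroxynonenal, was at 44.3, 32.4, 40.3 and 48.8 CPM in CD and at 46.1, 41.9 and 59.5 CPM in KD. It was the only transferase of the 4 with a higher fitted level in KD, by 0.24 (SE 0.16, 95% interval -0.13 to 0.62, raw p 0.175 in edgeR's quasi-likelihood test), and by 0.08 without KD replicate 3, its highest library. Gstm1, Gstm5 and Gstp1 differed by -0.10, -0.13 and -0.04. Gstp1 shares 33.7% of its 50-base stretches with other genes, chiefly the near-identical Gstp2. Gstp2 itself held 0 to 5 counts per library, against 1198 to 2305 for Gstp1. Gstm1 shares 18.9%, so the counts of Gstp1 and Gstm1 are less certain.

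The 3 metallothionein genes lie within a short stretch of chromosome 8, all on the plus strand: Mt3 at chr8:94152607-94154146, Mt2 at chr8:94172664-94173568 and Mt1 at chr8:94179082-94180327 (mm10). Mt1 was at 61.3, 66.3, 29.0 and 60.4 CPM in CD (54.2 ± 17.0, SD, n = 4) and at 34.6, 37.4 and 30.0 CPM in KD (34 ± 3.70, SD, n = 3). Mt2 was at 25.9, 28.0, 11.6 and 25.8 CPM in CD (22.8 ± 7.53) and at 10.6, 14.5 and 10.4 CPM in KD (11.8 ± 2.33). For both genes, CD replicates 1, 2 and 4 lay well above all KD libraries, and CD replicate 3 lay among or below them, so the ranges overlapped.

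The log2 fold change of Mt2 was -0.95 (SE 0.29, 95% interval -1.62 to -0.27, a KD to CD ratio of 0.519), with a raw p of 0.0116 and an adjusted p of 0.979 in edgeR's quasi-likelihood test. That of Mt1 was -0.67 (SE 0.26, 95% interval -1.27 to -0.08, ratio 0.628), with a raw p of 0.0309 and an adjusted p of 0.979. With any single library other than CD replicate 3 left out, the raw p of Mt2 stayed at or under 0.0429. That of Mt1 reached up to 0.0952 in those fits and was under 0.05 only without KD replicate 2. Mt2 and Mt1 ranked 1 and 2 among the 34 genes by raw p, and neither passed the adjusted threshold. Without CD replicate 3, the only CD library with low values, the log2 fold changes were -1.16 for Mt2 (raw p 1.12e-04) and -0.88 for Mt1 (raw p 5.61e-05), each still with an adjusted p of 0.586. In that fit these 2 genes were the only ones of the 34 with a raw p of at most 0.01, against 1.34% of all genes tested. Without CD replicate 4 and KD replicate 3, the pair apart on the first component, they were -0.79 (raw p 0.0954) and -0.53 (raw p 0.205).

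Mt3, which is made mainly in brain, was at 86.6, 73.5, 61.5 and 81.3 CPM in CD (75.7 ± 10.9) and at 73.6, 76.4 and 67.0 CPM in KD (72.3 ± 4.81). The diets overlapped throughout, and the log2 fold change was -0.07 (SE 0.12, 95% interval -0.35 to 0.21). Mt3 was again lowest in CD replicate 3. The count ratio of Mt1 to Mt3 was 0.471 to 0.901 in CD and 0.448 to 0.489 in KD, and that of Mt2 to Mt3 was 0.189 to 0.381 in CD and 0.144 to 0.190 in KD, overlapping through CD replicate 3 alone. The ratio of Mt2 to Mt1 was 0.422, 0.422, 0.402 and 0.428 in CD and 0.306, 0.389 and 0.346 in KD, and here the ranges did not overlap. This ratio was not tested. Of the 50-base stretches of the Mt2 exons, 45.8% are shared with the antisense gene Gm45774, which has no symbol in the count table, while Mt1 and Mt3 share 0.0%.

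**Figure D5:**
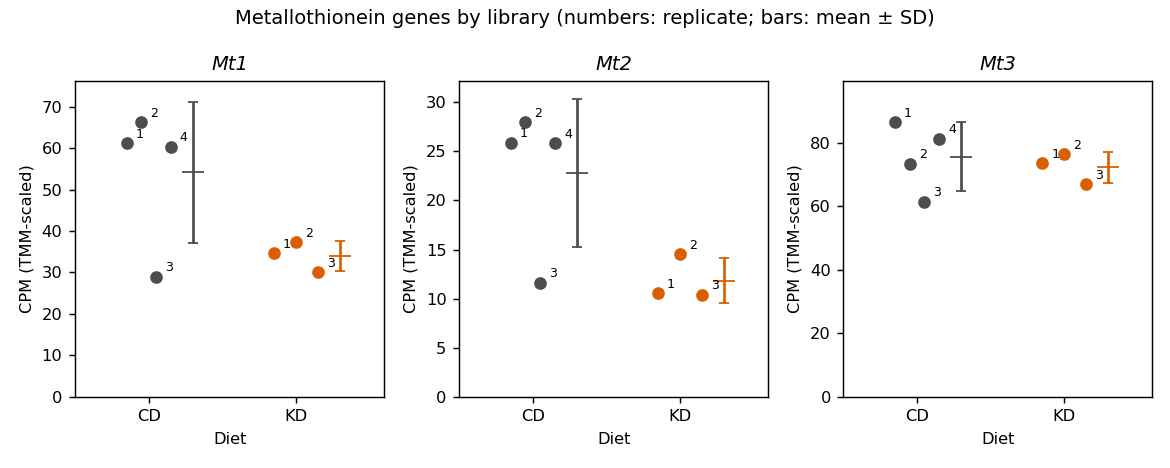
CPM (y axis, from 0) of Mt1, Mt2 and Mt3 in each library by diet (x axis), with replicate numbers beside the points and bars for mean ± SD (CD n = 4, KD n = 3). CD replicate 3 lies at the KD level for Mt1 (29.0 CPM) and Mt2 (11.6 CPM), the other CD libraries lie above all KD libraries, and Mt3 overlaps.

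Mt1 and Mt2 are known to be made mostly by astrocytes in cortex. The summed level of 10 astrocyte markers was 6579, 6210, 5689 and 6072 CPM in CD and 7834, 6504 and 5156 CPM in KD. KD libraries were both the highest and the lowest, 7 of the 10 markers had a higher fitted level in KD, and 0 had a raw p under 0.05. Gfap, the astrocyte filament gene, was at 345.1, 391.8, 213.4 and 295.0 CPM in CD and at 393.5, 321.6 and 247.1 CPM in KD, lowest in CD replicate 3. The summed level of 10 endothelial markers was 238.3 to 379.5 CPM in CD and 232.2 to 297.1 CPM in KD, and 7 of the 10 were lower in KD. The part of these cell types in the metallothionein levels was not tested.

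The sequences before Mt1 and Mt2 are shown because these were the only genes of the list with a raw p under 0.05, and because both are textbook targets of the metal-sensing factor Mtf1. The metal response element core was searched as TGCACNC or TGCGCNC on both strands of the 250 bases upstream of the RefSeq start (GRCm38.p6, plus strand), and matches are in capitals. The Mt1 window (chr8:94178839-94179088) held 1 match, 23 bases upstream, and the Mt2 window (chr8:94172368-94172617) held 3, at 223, 128 and 50 bases upstream, the last on the minus strand.
Mt1 upstream: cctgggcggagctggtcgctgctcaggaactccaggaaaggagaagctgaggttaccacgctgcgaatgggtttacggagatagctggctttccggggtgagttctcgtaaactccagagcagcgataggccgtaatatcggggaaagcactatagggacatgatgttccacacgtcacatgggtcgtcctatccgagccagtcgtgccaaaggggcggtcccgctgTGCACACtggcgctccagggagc
Mt2 upstream: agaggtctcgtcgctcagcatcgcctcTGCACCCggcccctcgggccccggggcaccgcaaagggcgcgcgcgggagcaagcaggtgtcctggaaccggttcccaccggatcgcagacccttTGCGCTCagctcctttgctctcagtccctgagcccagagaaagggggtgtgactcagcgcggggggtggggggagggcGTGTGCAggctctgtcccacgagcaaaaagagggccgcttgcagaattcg
The Mt2 window also held 1 antioxidant response element core, 79 bases upstream on the plus strand, and the Mt1 window held 0. Each window depends on the annotated RefSeq start, and sequence outside the windows was not searched, so elements there would be missed. The metal core was found in 8 of the 28 genes with a promoter entry (Gclm, Gstm1, Gstm5, Mt1, Mt2, Prdx4, Srxn1 and Txnrd2) and in 23.8% of all genes with an entry.

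Of 8 other genes of metal handling tested, 6 had a higher and 2 a lower fitted level in KD, with 0 at a raw p under 0.05. Mtf1 itself was at 39.5 to 44.2 CPM in CD and at 42.5 to 45.5 CPM in KD, a log2 fold change of 0.06 (95% interval -0.12 to 0.24). Slc30a1, a zinc exporter and another Mtf1 target, was at 53.5, 75.3, 59.2 and 69.0 CPM in CD and at 51.97, 68.6 and 91.7 CPM in KD. Its ranges overlapped, and the log2 fold change was 0.14 (95% interval -0.30 to 0.58). The 2 lower genes were Cp (ceruloplasmin, a copper-carrying ferroxidase) and the zinc importer Slc39a14. Cp was at 20.6, 22.6, 37.5 and 90.7 CPM in CD and at 24.8, 25.1 and 29.1 CPM in KD. CD replicate 4 was by far the highest library, the ranges overlapped, and the log2 fold change was -0.70 (95% interval -1.81 to 0.41). That of Slc39a14 was -0.0073 (95% interval -0.30 to 0.28).

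A wider list of the same pathways held 122 further genes, of which 113 were tested. They were lower in KD for 76 (67.3%, against 51.0% of all tested genes) and higher for 37, with a median log2 fold change of -0.07 against -0.0033. A raw p under 0.05 was reached by 5 (4.42%, near the 3.19% of all tested genes), 3 higher and 2 lower in KD, and 0 had an adjusted p under 0.05 in edgeR's quasi-likelihood test. By role, 10 of 14 genes of Nrf2 regulation, 16 of 23 further Nrf2 targets, 23 of 32 glutathione genes, 18 of 23 genes of thioredoxin function and protein repair, 7 of 13 sources of superoxide and other oxidants and 2 of the 8 metal handling genes were lower in KD.

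Msra, which repairs oxidized methionine, was at 39.7, 42.7, 39.3 and 41.3 CPM in CD and at 35.1, 35.1 and 30.5 CPM in KD. All KD libraries lay below all CD libraries, and the log2 fold change was -0.28 (SE 0.09, raw p 0.0121, adjusted p 0.979 in edgeR's quasi-likelihood test). The selenoprotein gene Selm (now Selenom) was at 23.7, 17.6, 16.3 and 19.8 CPM in CD and at 13.2, 13.7 and 17.2 CPM in KD, with an overlap through KD replicate 3 and a log2 fold change of -0.40 (SE 0.16, raw p 0.0374).

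Among the higher genes, Idh1, the cytosolic isocitrate dehydrogenase that supplies NADPH, was at 72.5, 65.0, 70.0 and 69.9 CPM in CD and at 81.4, 73.7 and 94.2 CPM in KD. Glrx2, a mitochondrial glutaredoxin, was at 43.3, 36.1, 45.9 and 40.4 CPM in CD and at 58.7, 51.0 and 46.2 CPM in KD. In both, every KD library lay above every CD library. The log2 fold changes were 0.26 (SE 0.10, raw p 0.0265) and 0.33 (SE 0.12, raw p 0.0212) in edgeR's quasi-likelihood test. Of the 113 further genes tested, 2 had every KD library above every CD library and 3 had every KD library below. Over all tested genes, 2.05% lay above and 2.07% below in this way.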

How the data were processed

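Cortex total RNA of 7 APP/PS1 mice was sequenced from stranded libraries. The authors aligned reads to mm10 with STAR, counted them per gene with its HTSeq mode and deposited raw counts per symbol, with no normalization. The tool versions, annotation and strand setting are not given in the sources used here, and overlapping genes may share reads. Over 10% of the 50-base stretches are shared with other genes for 8 of the 34 genes, Gss, Prdx2 and Prdx5 among them.

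Counts were filtered with filterByExpr, TMM-scaled and compared with edgeR 4.0.16 (R 4.3.3) by glmQLFit with robust=TRUE and glmQLFTest, without covariates, with Benjamini-Hochberg adjustment over 15881 genes. The raw threshold of 0.01 is that of the study. The 95% intervals come from the same fit. Depth was 22272883 to 36614954 counts per library. The 34 genes and all other lists were chosen with earlier results of these data known. Values per library were given for the regulators, classical targets, metallothioneins and the 8 genes with the smallest raw p, and further pathway genes were named at a raw p under 0.05, except 1 that is counted but not reported here. Other names (Gfap, Dcn, Ttr, Mtf1, Slc30a1, Cp, Slc39a14) were chosen after their values were seen. Coordinates and exon lengths are from GENCODE M21, and promoters from RefSeq (GRCm38.p6), found for 28 of 34 genes. The procedure was run on simulated data whose planted changes were larger than any fitted here for the 34 genes. The simulation thus gives no measure of how well smaller changes are found. The alternatives were RLE factors, library size alone, 2 other filters, the likelihood-ratio test, DESeq2 1.42.0, limma-voom (limma 3.58.1), a replicate block, Xist as a covariate and leaving out libraries. Only the fit without CD replicates 3 and 4 and KD replicate 3, which are the libraries with low Xist, was added after seeing the data.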

Additional observations from a re-analysis of the deposited data

Results flagged for a closer look

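In 3 of 34 genes, 1 CD library stood apart from the other 3 by Dixon's gap ratio on log2 CPM, above Dixon's 95% critical value. In each case it was CD replicate 3, on the low side. The ratio was 0.886 for Txn2 (26.7 CPM against 35.5 to 36.8), 0.887 for Mt1 (29.0 against 60.4 to 66.3) and 0.91 for Mt2 (11.6 against 25.8 to 28.0). Chance gives about 1 such library in 20 groups, or 1.7 over the 34 genes, and the KD group of 3 was not examined this way. CD replicate 3 was the lowest CD library for 25 of the 34 genes, and its summed oligodendrocyte marker level was 1154 CPM against 3708 to 4422 CPM in the other CD libraries.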

How the results depend on the processing

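No gene of the list had an adjusted p under 0.05 in any of the 18 alternatives. At the raw threshold of 0.01, 0 genes passed in the reported fit, 1 with the likelihood-ratio test, DESeq2, the replicate block or Xist as a covariate, 3 without CD replicates 3 and 4 and KD replicate 3 (chosen after seeing the data), and 0 to 2 when single libraries were left out (2 without CD replicate 3). Those with a raw p under 0.05 numbered 2 in the reported fit, 1 with limma-voom, 0 without CD replicate 4 and KD replicate 3, 6 without those 3 libraries, and 1 to 5 when single libraries were left out (5 without CD replicate 3, and 1 without CD replicate 1, 2 or 4 or KD replicate 1 or 3). The number over all tested genes moved too. At a raw p of at most 0.01 it was 51 of 15881 in the reported fit, 103 with the likelihood-ratio test and 120 with DESeq2. It was 182 of 15660 with the replicate block and 208 of 15881 with Xist as a covariate. Without CD replicate 3 it was 211 of 15729, and without the 3 libraries 420 of 15705. At a raw p under 0.05 it was 506 of 15881 in the reported fit. That rose to 1161 of 15729 without CD replicate 3 and to 1531 of 15705 without the 3 libraries. For the further pathway genes the count was 5, 12 with Xist as a covariate, 13 without the 3 libraries, and 3 to 13 when single libraries were left out (3 without CD replicate 2, 10 without KD replicate 2 and 13 without CD replicate 3). The median log2 fold change stayed negative, at its lowest -0.139 (CD replicate 3 left out) and at its highest -0.0345 (CD replicate 1 left out), and 21 to 30 genes were lower in KD.

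A fit with a replicate block, which leaves out CD replicate 4, put 6 of the 34 below a raw p of 0.05 and 0 below an adjusted p of 0.05, where 923 of all 15660 genes tested were below a raw p of 0.05. Deviations of same-numbered libraries correlated at 0.251, 0.195 and 0.098. CD replicates 1, 2 and 3 each correlated best with the KD library of the same number. KD replicate 2 correlated better with CD replicate 1 (0.209), and KD replicate 3 with CD replicate 4 (0.308). Whether same-numbered libraries form pairs was not tested.

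The sign held in every alternative for 18 genes, Mt1 and Mt2 among them, and changed in at least 1 for 16. With the block, log2 fold changes of opposite sign were 0.14 for Nfe2l2, 0.013 for Nqo1, -0.0601 for Gpx1, 0.0201 for Cat, -0.0282 for Prdx4, -0.0019 for Txn1, -0.0715 for Txnrd2, 0.29 for Slc7a11 and 0.0371 for Gstm1. Without CD replicate 4 and KD replicate 3 they were 0.33 for Nfe2l2, -0.04 for Gpx1, 0.12 for Sod3, 0.0071 for Cat, -0.02 for Prdx4, -0.04 for Txnrd2, 0.11 for Slc7a11, 0.0668 for Gstm1 and 0.025 for Mt3. Without the 3 libraries they were 0.26 for Nfe2l2, -0.17 for Gpx1, -0.0753 for Gpx3, -0.0232 for Prdx1, -0.0314 for Txn1 and 0.39 for Slc7a11, and Gstp1, without a change of sign, was at -0.24. Txnrd2 was at -0.0066 with library size alone and at -0.0056 with the filter of 1 count. Leaving out single libraries gave ranges of -0.26 to 0.17 for Nfe2l2, -0.33 to 0.10 for Hmox1, -0.34 to 0.0057 for Nqo1, -0.07 to 0.15 for Gpx1, -0.04 to 1.10 for Gpx3, -0.08 to 0.008 for Sod1, -0.31 to 0.04 for Sod3, -0.10 to 0.0157 for Cat, -0.0625 to 0.13 for Prdx1, -0.0288 to 0.0707 for Prdx4, -0.0262 to 0.0598 for Txn1, -0.0957 to 0.081 for Txnrd2, -0.57 to 0.28 for Slc7a11, -0.25 to 0.0054 for Gstm1, -0.14 to 0.0675 for Gstp1 and -0.15 to 0.0032 for Mt3. The causes were not tested. With 4 mice against 3, p-values rest on little replication, the sex of the mice is not in the labels, and of the single libraries left out, CD replicate 3 gave the highest counts at both raw thresholds.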
